A study of Mus musculus with 6 samples.

Results

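The 69 genes described here are the protocadherins of the mouse, defined as the protein-coding genes of GENCODE M21 whose symbol begins with Pcdh, out of 49315 genes in the count table. They comprise 14 genes of the alpha cluster, 22 of the beta cluster, 21 of the gamma cluster and 12 that lie outside the clusters. Of these, 68 had enough reads to be tested, and Pcdhb1 had no read in any library, which allows a level of up to 3 counts in each (counting error only). RNA-seq counts were obtained from whole dissected medial ganglionic eminence (MGE), the ventral forebrain zone that gives rise to many cortical interneurons, of mouse embryos at embryonic day 14. All 6 libraries came from embryos carrying the Nkx2.1-Cre driver and the Ai14 reporter. The 3 WT libraries were Prdm16+/+ and the 3 KO libraries were Prdm16fl/fl, so the comparison asks which transcripts differ once Prdm16, which encodes a zinc finger regulator of transcription in neural stem cells, is deleted where Nkx2.1-Cre acts. Nkx2.1-Cre recombines in progenitors of the MGE and their progeny, and blood vessels, microglia and cells that migrated in from neighbouring zones are not expected to carry the deletion. Each library was made from 1 separate pool of 3 embryos (6 MGEs). No WT library carried the floxed allele.

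Protocadherins are cadherin-related adhesion molecules of the cell surface. In the alpha and gamma clusters each variable exon has its own promoter and is spliced to constant exons shared by the cluster, whereas each beta gene is essentially a single coding exon. Neurons choose a few of these promoters each, and the resulting combinations recognise identical combinations on other membranes, which lets neurites of one cell avoid each other, while gamma genes are also known for the survival of cortical interneurons. The non-clustered protocadherins, most of them of the delta type, are each expressed in their own sets of brain regions and act in cell sorting, axon growth and synapse formation.

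In the KO libraries 25 of the 68 tested protocadherins were lower and 0 were higher, at an adjusted p under 0.05 in the edgeR quasi-likelihood test with Benjamini-Hochberg adjustment over all 18079 genes tested. The share of members called lower was 36.8%, against 10.5% of all tested genes called lower, 9.72% called higher and 20.2% called in either direction. In 65 of the 68 members (64 to 66 under the other scalings) the log2 fold change, KO over WT, was negative, with a median of -0.42 and a range of -1.18 to 0.09, while the median over all tested genes was -0.00. All 3 KO libraries lay below all 3 WT libraries in 36 members and above them in 0, while among all tested genes 19.6% had the KO libraries wholly below and 39.9% had groups that did not overlap in either direction. The drop was moderate in size, from 1.26-fold (Pcdh8) to 2.08-fold (Pcdh20) among the called members. In bulk tissue, fewer cells of a type that expresses these genes and less RNA per cell cannot be told apart.

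**Figure D1:**
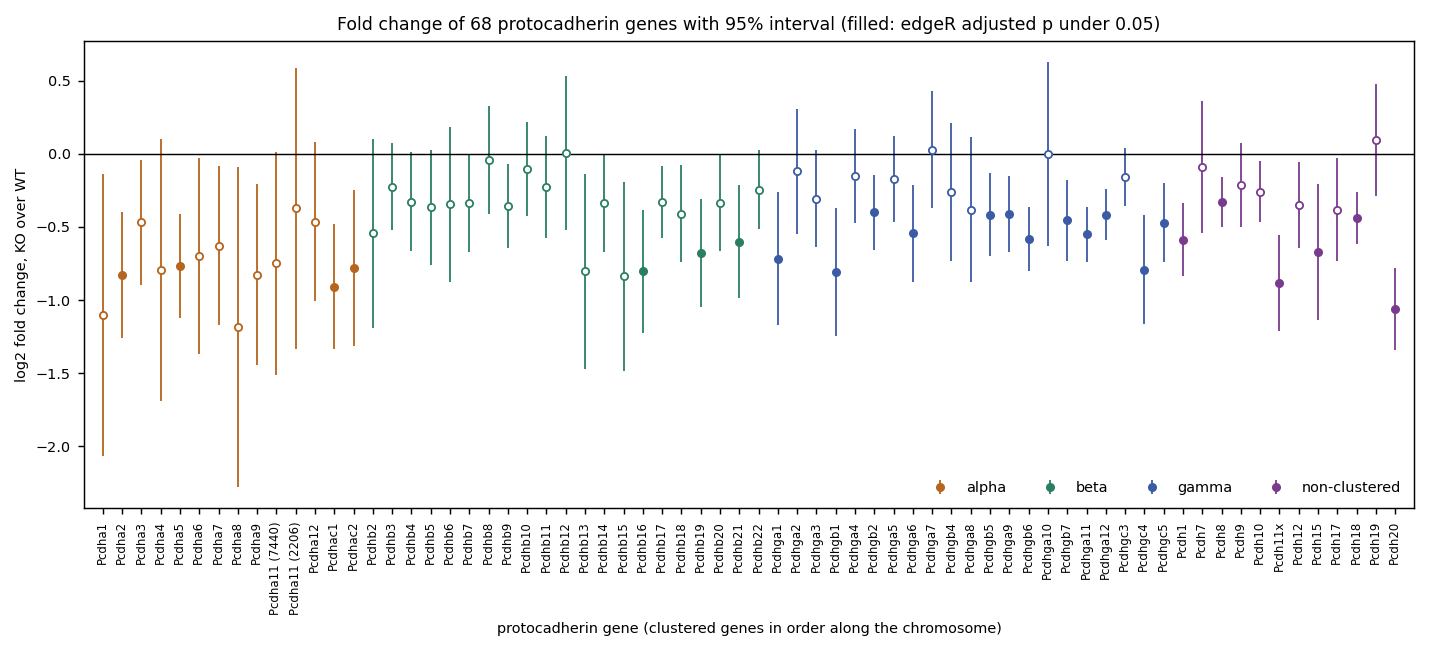
Log2 fold change of each of the 68 tested protocadherins, KO over WT (vertical axis), with its 95% confidence interval, for the clustered genes in chromosomal order followed by the non-clustered genes (horizontal axis, coloured by group). Filled points passed an edgeR adjusted p of 0.05; all 25 of them lie below 0, and 65 of the 68 points are below 0. The 2 genes named Pcdha11 are told apart by the last digits of their Ensembl IDs.

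Library totals ran from 33188277 to 55552298 counts, and levels are given as CPM, read counts relative to a library's total, scaled by TMM factors. Among the KO libraries KO 1 stood apart, at -34.99 on the second principal component (16.1% of variance) where KO 2 and KO 3 were at 11.58 and 12.4. Without KO 1, 54 of 68 members were called lower (79.4%, against 20.9% of all genes in that comparison), whereas 15, 8 and 7 were when WT 1, WT 2 or WT 3 was left out, and 10 and 7 when KO 2 or KO 3 was. The share called lower dropped over all genes too, to 6.31%, 3.9% and 3.91% without WT 1, WT 2 or WT 3 and to 4.17% and 4.31% without KO 2 or KO 3, where the members' shares were 22.1%, 11.8%, 10.3%, 14.7% and 10.3%. No member was called higher in any of these. KO 1 was the highest of the 3 KO libraries in 61 of 68 members (89.7%), against 40% of all tested genes. Among genes called lower it was the highest in 22 of the 25 members (88%), beside 75% of all 1897 genes called lower. Prdm16 had 49.4 ± 5.55 CPM in WT and 50.2 ± 4.02 CPM in KO (SD, n = 3). Its log2 fold change of 0.02 (SE 0.09, edgeR adjusted p = 0.884) rests on a count over the whole gene that need not register the loss of floxed exons, so the directions rest on the labels.

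All 12 MGE identity markers examined, among them Nkx2-1 and Lhx6, were detected, 1 called higher and 5 lower. Their summed level was 4883 to 5217 CPM in WT and 4268 to 4761 CPM in KO. Over all tested genes 9.72% were called higher and 10.5% lower. Marker sums of other cells moved in both directions. Of 12 postmitotic neuron markers 4 were lower and 1 higher (summed 6392 to 6716 CPM in WT, 5890 to 6334 CPM in KO). Of 12 radial glia markers 10 were higher and 1 lower (2378 to 2513 CPM in WT, 3342 to 3737 CPM in KO). Of 12 markers of striatal neurons and the lateral eminence 9 were lower (1062 to 1300 CPM in WT, 783.7 to 938.4 CPM in KO). Of 11 cortical excitatory markers 6 were higher (39.11 to 70.02 CPM in WT, 78.03 to 131.2 CPM in KO). The 6 pericyte markers were all lower (126.1 to 128.8 CPM in WT, 75.43 to 108.8 CPM in KO), as were 2 of 6 microglia markers (34.77 to 36.4 CPM in WT, 26.79 to 32.36 CPM in KO), while of 8 red cell genes 3 were higher and 2 lower (658 to 719.9 CPM in WT, 995.8 to 1595 CPM in KO). No gene of these lists was at 0 in any library, and their part in the protocadherin differences was not tested.

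The promoters of 3 called members and of 1 member that was not called are shown because these genes lie outside the clusters, were counted with little or no overlap with other genes, and differ in how they moved: Pcdh20 had the strongest drop of the 25, Pcdh18 had KO values that nearly coincided, Pcdh8 had the highest level per length outside the clusters, and Pcdh19 a difference that did not pass the test. Each sequence is the 250 bases 5′ of the RefSeq start on GRCm38.p6, read 5′ to 3′ on the gene's strand, which is the minus strand in all 4. The Pcdh20 window abuts the annotated gene. However, the bases just after its start were not found in a GENCODE M21 transcript, as they were for Pcdh18, Pcdh8 and Pcdh19. Pcdh20 is at chr14:88471397-88471646, Pcdh18 at chr3:49757317-49757566, Pcdh8 at chr14:79771313-79771562 and Pcdh19 at chrX:133688994-133689243. Capitals mark matches, on either strand, to the CCAAT box (CCAAT, or ATTGG on the other strand), the GC box (GGGCGG, or CCGCCC) and the TATA box (TATAAA).
Pcdh20: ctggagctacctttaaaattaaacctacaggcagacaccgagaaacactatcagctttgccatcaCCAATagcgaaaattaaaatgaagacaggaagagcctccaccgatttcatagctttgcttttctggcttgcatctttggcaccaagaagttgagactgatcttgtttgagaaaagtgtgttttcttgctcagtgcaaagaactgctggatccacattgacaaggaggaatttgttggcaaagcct
Pcdh18: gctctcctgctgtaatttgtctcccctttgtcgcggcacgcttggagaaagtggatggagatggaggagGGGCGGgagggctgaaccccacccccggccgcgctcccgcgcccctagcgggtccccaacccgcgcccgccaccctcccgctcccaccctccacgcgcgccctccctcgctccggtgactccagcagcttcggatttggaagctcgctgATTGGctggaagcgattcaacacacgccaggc
Pcdh8: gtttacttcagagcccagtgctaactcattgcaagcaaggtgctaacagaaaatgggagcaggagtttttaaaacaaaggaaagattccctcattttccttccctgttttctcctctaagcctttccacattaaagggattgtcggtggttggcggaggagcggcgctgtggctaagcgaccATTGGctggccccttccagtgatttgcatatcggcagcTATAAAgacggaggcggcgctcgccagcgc
Pcdh19: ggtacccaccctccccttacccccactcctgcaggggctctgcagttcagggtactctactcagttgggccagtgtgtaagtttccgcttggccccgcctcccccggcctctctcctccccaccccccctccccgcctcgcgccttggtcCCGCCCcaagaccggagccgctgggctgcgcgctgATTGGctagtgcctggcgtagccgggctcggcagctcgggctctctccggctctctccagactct

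Promoter sequences were at hand for 9 of the 12 non-clustered members (Pcdh7, Pcdh8, Pcdh9, Pcdh10, Pcdh15, Pcdh17, Pcdh18, Pcdh19 and Pcdh20). CCAAT or its complement occurred in 8 of these 9, against 33.8% of 32851 promoters of the same 250-base length. GGGCGG occurred in 4 of 9 (32.7% of all promoters) and TATAAA in 2 of 9, Pcdh8 and Pcdh15 (12.4% of all). The Pcdh15 window (chromosome 10, 73821617 to 73821866) lies inside the gene, which starts at 73099342, so it belongs to an internal start. The Pcdh7 window (chromosome 5, 57717831 to 57718080), which had no match to any of the motifs, runs into the gene, which starts at 57717967. That of Pcdh18 (49757317 to 49757566) does so by a few bases, as the gene reaches to 49757325. TGGGAA, the core bound by Rbpj, occurred in 1 of 9, Pcdh10 (21.6% of all). CAGCTG, an E box, and TAATTA, a homeodomain core, occurred in 0 of 9 (13% and 4.84% of all). No 2 matches overlapped in these 9 windows. The 4 printed promoters differed in base composition, with 42.4% G and C in Pcdh20, 51.2% in Pcdh8, 68% in Pcdh18 and 69.2% in Pcdh19. CCAAT was present in the called Pcdh8, Pcdh18 and Pcdh20 and in Pcdh19, which was not called. A match is a description of the letters alone.

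Among the non-clustered genes, 6 of 12 were lower in KO (50%) and 0 higher, against 10.5% and 9.72% of all tested genes. The non-clustered median log2 fold change was -0.37. Without KO 1 the count was 10, without WT 1 it was 6, and without WT 2, WT 3, KO 2 or KO 3 it was 4, while the share of all genes called lower was 20.9% without KO 1 and 3.9% to 6.31% in the others. Pcdh20, which has been tied to the laminar position of neurons of cortical layer 4, had the largest fold of the 25 called members. Its levels were 6.85, 6.03 and 6.00 CPM in WT and 3.18, 2.66 and 3.19 CPM in KO, here and throughout in the order of libraries 1, 2 and 3. The groups were far apart, and KO 1 was no higher than KO 3. The fold was 2.08 (log2 fold change -1.06, SE 0.13, edgeR adjusted p = 0.000875), and leaving out any 1 library left the edgeR adjusted p at 0.00583 or below. The gene lies on chromosome 14 (GRCm38, 88464743 to 88471396).

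Pcdh1, Pcdh7, Pcdh9 and Pcdh11x are the delta1 protocadherins, whose cytoplasmic tails carry a docking motif for protein phosphatase 1. Pcdh11x (chromosome X, 120290259 to 120910619) had 8.52, 11.3 and 11.8 CPM in WT and 6.57, 5.38 and 5.13 CPM in KO. Every KO library lay below every WT library, and the gene fell 1.85-fold (log2 fold change -0.88, SE 0.15, edgeR adjusted p = 0.00486). Pcdh1 (chromosome 18, 38185914 to 38212053), a broadly expressed adhesion molecule, had 108, 115 and 116 CPM in WT and 91.4, 68.8 and 65.9 CPM in KO. Its groups did not overlap, KO 1 being the closest to WT, and the level fell 1.5-fold (log2 fold change -0.59, SE 0.11, edgeR adjusted p = 0.00926). Both calls held with any 1 library left out (largest edgeR adjusted p 0.0284 for Pcdh11x and 0.0412 for Pcdh1).

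The other delta1 genes did not pass the test. Pcdh9 (chromosome 14, 93013410 to 93890679), a homophilic adhesion protein of developing neurons, had 12.6, 14.1 and 14 CPM in WT and 14.2, 10.6 and 10.2 CPM in KO. Here KO 1 was above all WT libraries while KO 2 and KO 3 were below them (log2 fold change -0.22, 95% interval -0.50 to 0.07, edgeR adjusted p = 0.25). Pcdh7 (chromosome 5, 57717967 to 58133230), known as NF-protocadherin for its part in axon growth, had 14.8, 20.8 and 20.3 CPM in WT and 23.0, 14.7 and 14.7 CPM in KO. WT 1 was as low as KO 2 and KO 3, and KO 1 was the highest of the 6 (log2 fold change -0.09, 95% interval -0.54 to 0.36, edgeR adjusted p = 0.781). Without KO 1, Pcdh9 was called lower (log2 fold change -0.38, edgeR adjusted p = 0.00456) and Pcdh7 was not (-0.33, edgeR adjusted p = 0.0909).

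Pcdh8, Pcdh10, Pcdh17, Pcdh18 and Pcdh19 form the delta2 subgroup, in which several members recruit the WAVE complex to remodel actin. Pcdh18 (chromosome 3, 49743296 to 49757325), which binds the reelin adaptor Dab1, had 30.9, 26.3 and 26.5 CPM in WT and 20.6, 20.1 and 21.1 CPM in KO. The 3 KO values nearly coincided, KO 1 among them, and lay below all WT values. The gene fell 1.36-fold (log2 fold change -0.44, SE 0.08, edgeR adjusted p = 0.00695), and the call held with any 1 library left out. Pcdh8 (chromosome 14, 79766775 to 79771312), also called arcadlin, takes part in the activity-driven internalisation of N-cadherin at synapses. It had 74.7, 87.5 and 84.8 CPM in WT and 70.9, 63.4 and 62.2 CPM in KO, so that KO 1 came close to WT 1 without reaching it. The drop was 1.26-fold (log2 fold change -0.33, SE 0.08, edgeR adjusted p = 0.0184), and the call was lost without WT 2, WT 3, KO 2 or KO 3 (edgeR adjusted p 0.085, 0.0775, 0.0747 and 0.0761).

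Pcdh10 and Pcdh17, both with known roles in the axons of striatal and other forebrain neurons, had lower values than WT in KO 2 and KO 3 alone. Pcdh10 (chromosome 3, 45378398 to 45435623) had the highest CPM of all members, at 130, 149 and 142 CPM in WT and 136, 110 and 105 CPM in KO. KO 1 fell within the WT range (log2 fold change -0.26, 95% interval -0.47 to -0.05, edgeR adjusted p = 0.0797). Pcdh17 (chromosome 14, 84443563 to 84539002) had 67.8, 81.6 and 69.5 CPM in WT and 70.9, 46.9 and 50.0 CPM in KO. KO 1 was again inside the WT range (log2 fold change -0.38, 95% interval -0.74 to -0.03, edgeR adjusted p = 0.113). Without KO 1 both were called lower, Pcdh10 at -0.37 (edgeR adjusted p = 0.000192) and Pcdh17 at -0.58 (edgeR adjusted p = 0.00035) on the log2 scale.

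Pcdh19 (chromosome X, 133582860 to 133688987), an X-linked gene whose mosaic loss is known to cause epilepsy in girls, was the non-clustered member with a positive fold change. Its levels were 47.3, 47.1 and 48.7 CPM in WT and 66.9, 42.2 and 43.6 CPM in KO. KO 1 was above all other libraries and KO 2 and KO 3 were below all WT libraries, so the groups overlapped (log2 fold change 0.09, 95% interval -0.29 to 0.47, edgeR adjusted p = 0.719). Without KO 1 the log2 fold change was -0.15 and the gene was called lower (edgeR adjusted p = 0.0306). Xist, the RNA of the inactive X chromosome, marks libraries with RNA from female embryos and had 1040, 1170 and 1020 CPM in WT but 1.92, 721 and 1420 CPM in KO. KO 1 was therefore nearly without Xist, and its part in the X-linked Pcdh19 and Pcdh11x values was not tested.

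Pcdh15 and Pcdh12 belong to neither delta subgroup. Pcdh15 (chromosome 10, 73099342 to 74649737) forms the tip link of hair cells together with Cdh23, and both have been described in interneuron precursors. It had 7.74, 11.9 and 9.78 CPM in WT and 7.22, 4.34 and 6.80 CPM in KO. The groups did not overlap, although WT 1 and KO 1 were close, and the gene fell 1.59-fold (log2 fold change -0.67, SE 0.21, edgeR adjusted p = 0.0488). That call was lost without WT 2, WT 3, KO 1, KO 2 or KO 3 (edgeR adjusted p 0.167, 0.121, 0.0531, 0.125 and 0.0989). It was also lost with upper quartile factors (adjusted p 0.0502), no filter (0.0734), limma voom (0.0536) and no robust weighting (0.0506). Blocking on replicate number (0.109) and removal of the length trend (0.134, log2 fold change -0.42) ended it too. All of these fits were in edgeR except voom. Pcdh12 (chromosome 18, 38267089 to 38284402), a protocadherin of endothelium, had 7.28, 7.98 and 6.81 CPM in WT and 6.77, 5.41 and 5.13 CPM in KO. All KO values were below all WT values, KO 1 by a narrow margin, and the gene did not pass the test (log2 fold change -0.35, 95% interval -0.64 to -0.06, edgeR adjusted p = 0.085). Without KO 1 it was called lower (log2 fold change -0.48, edgeR adjusted p = 0.00484). The 8 endothelial markers examined summed to 200.1, 201.2 and 201.3 CPM in WT and 179.8, 149.3 and 149.1 CPM in KO, with 2 of the 8 called lower, and the part of vessel content in the Pcdh12 values was not tested.

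**Figure D2:**
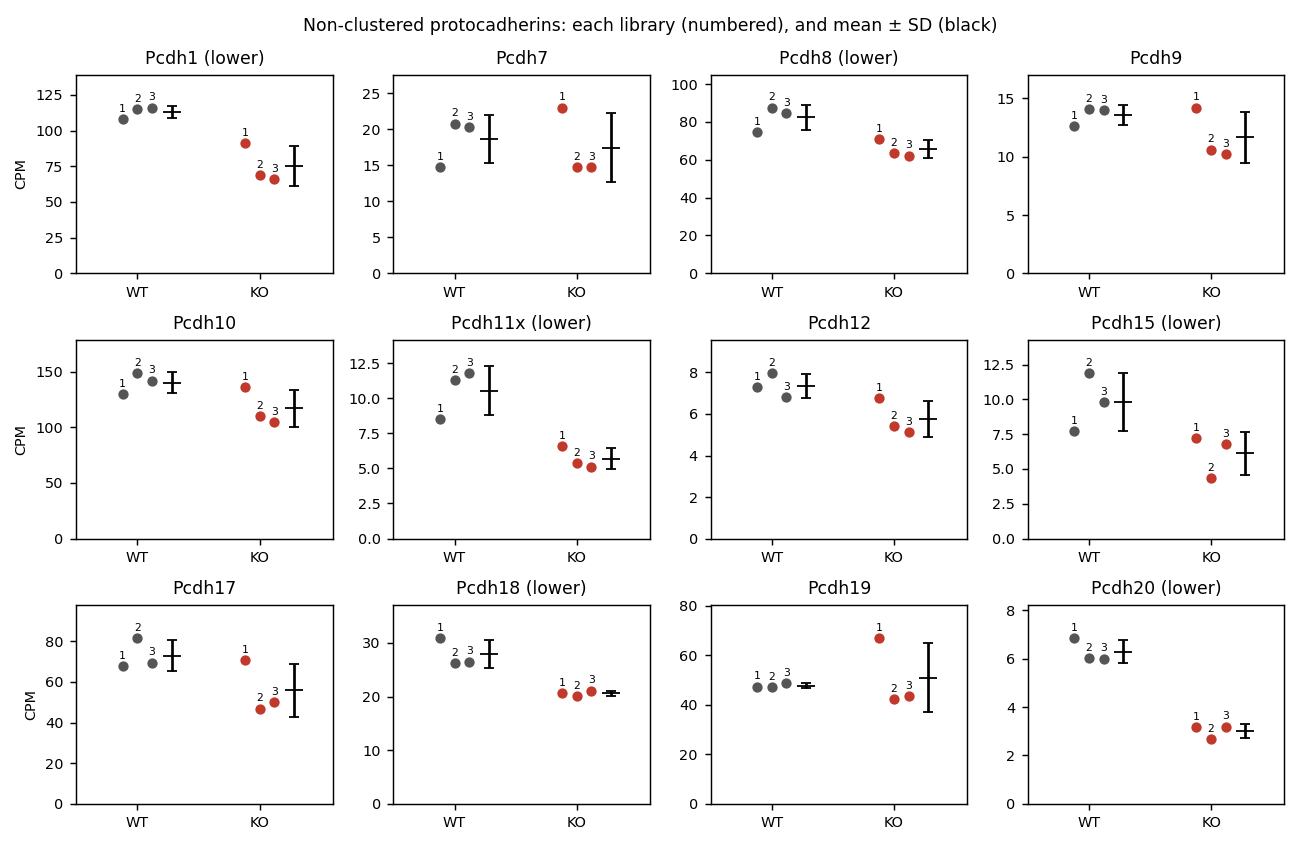
Level in CPM (vertical axis, from 0) of each non-clustered protocadherin in the 3 WT and 3 KO libraries (points, numbered by library), with the mean ± SD of each group in black. The 6 genes marked lower passed an edgeR adjusted p of 0.05, and in Pcdh7, Pcdh9, Pcdh10, Pcdh17 and Pcdh19 the point of KO 1 lies within or above the WT points.

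The 3 clusters lie next to each other on chromosome 18 (GRCm38), alpha at 36930184 to 37187661, beta at 37264938 to 37524479 and gamma at 37661793 to 37841873. Over the clusters 19 of 56 tested genes were lower (33.9%) and 0 higher, against 10.5% and 9.72% of all tested genes. The median log2 fold change over the clusters was -0.42. Alpha and gamma transcripts of one cluster share their 3′ constant exons, and in the files such shared reads appear not to have been given to each gene, since in KO 2 one alpha member had 2 counts while the alpha sum was 852. The counts of these genes therefore rest mainly on the variable exons. Exon that no other annotated gene covers made up a median of 46.4% (alpha) and 54.8% (gamma) of a gene's exonic length. Splitting of reads between near-identical members by the counting could not be checked, so the values of single clustered genes are uncertain to that extent. Antisense or overlapping transcripts also cover some exon of several members, among them Pcdh7, Pcdh8, Pcdh10, Pcdh19, Pcdhb12 and Pcdhgc3. The called Pcdhb21 and its neighbour Pcdhb22 overlap each other on the same strand. Bases that no other annotated gene covers were 1256 of 4756 in the called Pcdhga11, 1823 of 4713 in the called Pcdhgb7 and 404 of 5768 in Pcdha4. No source used here gives the strand setting of the counting, so reads of overlapping genes cannot be told apart. Annotated transcripts that read through the clusters (Gm42416, Gm37013 and Gm37388) had no counts in any library. All of their exonic length is shared with other annotated genes, so the absence of counts cannot show whether they were transcribed.

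Genes next to the clusters were called in both directions. Of the 31 named protein-coding genes tested within 1000 kb of a cluster, members left out, 4 were higher (12.9%, against 9.72% of all genes) and 5 lower (16.1%, against 10.5%), with a median log2 fold change of 0.02 and values from -0.47 to 0.52. Those called higher were Pfdn1, Sra1, Ndufa2 and Taf7, and those called lower were Psd2, Pura, Hbegf, Diaph1 and Rell2 (named after their values were seen). Taf7, a subunit of the general transcription factor TFIID, lies between the beta and gamma clusters and had 27.0 ± 1.32 CPM in WT and 33.1 ± 1.51 CPM in KO (log2 fold change 0.29 with an SE of 0.07, edgeR adjusted p = 0.0186). Diaph1, an actin-nucleating formin just beyond the gamma cluster, had 84.0 ± 1.88 CPM in WT and 70.5 ± 5.84 CPM in KO (log2 fold change -0.25 with an SE of 0.07, edgeR adjusted p = 0.0272).

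**Figure D3:**
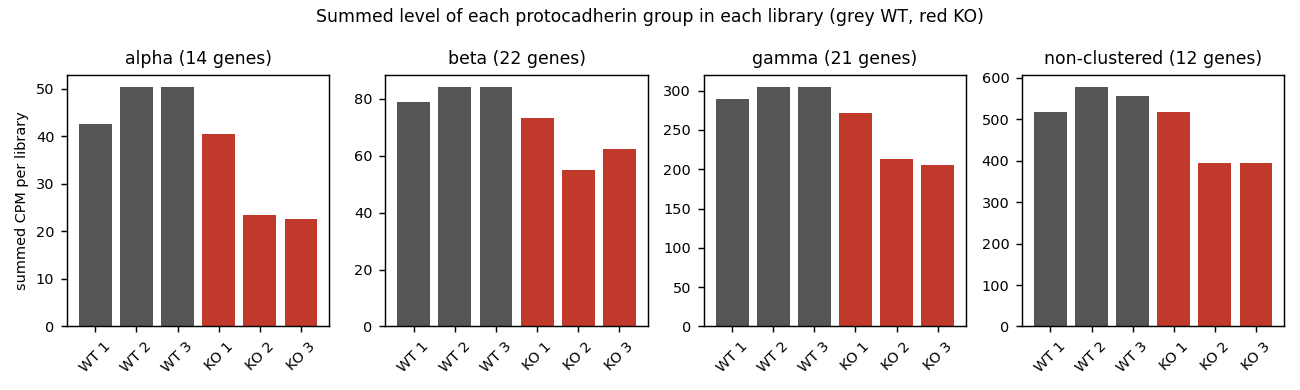
Summed level in CPM (vertical axes, each from 0) of the genes of each protocadherin group in each library, WT in grey and KO in red. In alpha, beta and gamma all KO bars are below all WT bars, KO 1 being the tallest of the KO bars in each, and in the non-clustered genes KO 1, at 517.5 CPM, stands as high as WT 1, at 516.8 CPM.

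Added up over each group, the sums behind that plot were 42.62, 50.48 and 50.38 CPM in WT and 40.58, 23.39 and 22.58 CPM in KO for alpha. The beta sum was 78.97, 84.33 and 84.33 CPM in WT and 73.12, 54.90 and 62.38 CPM in KO. For gamma it was 289, 304.9 and 305.1 CPM in WT and 271.9, 213.3 and 205.6 CPM in KO. KO 1 was thus nearer to WT 1 than to the other KO libraries in all 3 clusters. The KO mean was 0.603 of the WT mean in alpha, 0.769 in beta and 0.768 in gamma, values that describe these libraries without a test. For alpha the log2 ratio was -0.73 with all libraries and -1.05 without KO 1. Protocadherins took 0.0924%, 0.103% and 0.1% of all counts in WT and 0.0899%, 0.0685% and 0.0679% in KO.

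In the alpha cluster 4 of 14 genes were lower (28.6%, against 10.5% of all tested genes). All 14 had negative fold changes, with a median of -0.77 on the log2 scale, the lowest of the 4 groups. Alpha genes were also the least abundant in sum, and the median standard error of their log2 fold changes was 0.26, against 0.13 in the non-clustered genes. The number called lower was 13 of 14 without KO 1, 3, 1 and 0 when WT 1, WT 2 or WT 3 was left out, and 2 and 0 when KO 2 or KO 3 was. Over all genes the share called lower was 20.9% without KO 1 and 3.9% to 6.31% in the other 5 fits. KO 1 was the highest KO library in 14 of 14 alpha genes, beside 40% of all tested genes and 75% of all genes called lower.

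Both C-type alpha genes, which are transcribed in most neurons rather than chosen at random, were lower. Pcdhac2 (37143503 to 37187657), needed for the even spacing of serotonergic axons, had 14.6, 16.3 and 17.3 CPM in WT and 13.5, 7.44 and 7.10 CPM in KO. The groups did not overlap, but KO 1 was close to WT 1, and the fold of 1.72 had an SE of 0.23 on the log2 scale (log2 fold change -0.78, edgeR adjusted p = 0.0486). The call was lost when any library but KO 1 was left out, in the order WT 1 to 3, KO 2 and KO 3 (edgeR adjusted p 0.082, 0.135, 0.139, 0.138 and 0.135), and without KO 1 the edgeR adjusted p was 2.97e-06. It was also lost without a filter on low counts (edgeR adjusted p 0.235), with blocking on replicate number (0.0578) and with the length trend removed (0.0545). Pcdhac1 (37090013 to 37187657) had 3.43, 3.52 and 3.60 CPM in WT and 2.48, 1.51 and 1.61 CPM in KO. Its WT values were nearly equal, all KO values were below them, and it fell 1.88-fold (log2 fold change -0.91, SE 0.19, edgeR adjusted p = 0.0126), a call lost without WT 3 or KO 3 (edgeR adjusted p 0.0529 and 0.0548).

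Of the 12 alternate alpha genes, Pcdha2 and Pcdha5 were called lower. Pcdha2 had 3.53, 4.54 and 3.94 CPM in WT and 2.93, 1.95 and 1.87 CPM in KO. Pcdha5 had 3.08, 3.88 and 4.17 CPM in WT and 2.41, 2.03 and 2.07 CPM in KO. Neither had overlapping groups, and they fell 1.77-fold (edgeR adjusted p = 0.0185) and 1.70-fold (edgeR adjusted p = 0.0119). The Pcdha2 call was lost without WT 2, WT 3, KO 2 or KO 3 (edgeR adjusted p 0.0776, 0.0626, 0.0709 and 0.0748), and the Pcdha5 call without WT 2, WT 3 or KO 3 (0.0513, 0.0584 and 0.0527). Pcdha3, second to Pcdhac2 in level per length, had 4.30 ± 0.691 CPM in WT and 3.10 ± 0.739 CPM in KO with overlapping groups (log2 fold change -0.47, edgeR adjusted p = 0.107). Pcdha8, the lowest in level per length, had 0.364 ± 0.132 CPM in WT and 0.157 ± 0.108 CPM in KO (log2 fold change -1.18, 95% interval -2.28 to -0.09, edgeR adjusted p = 0.112), the widest interval of the family. Without KO 1, Pcdha3 (edgeR adjusted p = 0.00638) and Pcdha8 (edgeR adjusted p = 0.0194) were called lower. The other 8 alpha genes, of which 2 IDs carry the name Pcdha11, had log2 fold changes from -1.10 to -0.37 and were not called.

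In the beta cluster 3 of 21 tested genes were lower, 14.3% against the 10.5% of all genes. In 11 of 21 the KO libraries lay wholly below WT, as they did in 19.6% of all tested genes. The median log2 fold change of the beta genes was -0.34. Beta proteins lack the constant cytoplasmic tail and work as partners of other isoforms in recognition complexes. Pcdhb16 had 3.73, 4.36 and 3.62 CPM in WT and 2.84, 1.67 and 2.14 CPM in KO. Pcdhb19 had 6.22, 7.05 and 7.30 CPM in WT and 5.46, 3.54 and 3.82 CPM in KO. Pcdhb21 had 2.30, 2.75 and 2.61 CPM in WT and 2.03, 1.43 and 1.56 CPM in KO. In each of the 3 genes KO 1 was the highest KO library and still below all WT libraries. They fell 1.75-fold (edgeR adjusted p = 0.0192), 1.6-fold (0.0216) and 1.52-fold (0.0376). Each of these calls was lost without WT 2, WT 3, KO 2 or KO 3 (largest edgeR adjusted p 0.0788, 0.0859 and 0.133), and that of Pcdhb21 also without WT 1 (edgeR adjusted p 0.0617).

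The beta genes with the highest level per length did not pass the test. Pcdhb7 had 9.34 ± 0.816 CPM in WT and 7.36 ± 1.56 CPM in KO, with KO 1 inside the WT range (log2 fold change -0.34, edgeR adjusted p = 0.129). Pcdhb17 had 10.2 ± 0.463 CPM in WT and 8.06 ± 0.968 CPM in KO, with no overlap (log2 fold change -0.33, edgeR adjusted p = 0.0586). Pcdhb14, the lowest tested beta gene per length, had 1.95 ± 0.156 CPM in WT and 1.54 ± 0.0175 CPM in KO (log2 fold change -0.34, edgeR adjusted p = 0.137). Without KO 1, Pcdhb7 (edgeR adjusted p = 0.00265) and Pcdhb17 (edgeR adjusted p = 0.0155) were among 12 of 21 beta genes called lower, and Pcdhb14 was not (edgeR adjusted p = 0.144). Without WT 1 the count was 2, and without WT 2, WT 3, KO 2 or KO 3 it was 0, beside the same shares over all genes (20.9% without KO 1, 3.9% to 6.31% otherwise). The other 15 tested beta genes had log2 fold changes from -0.84 to 0.00, none called with all 6 libraries.

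The gamma cluster had the highest share of called genes, with 12 of 21 lower (57.1%) and 0 higher. Over all tested genes 10.5% were lower and 9.72% higher. The gamma median log2 fold change was -0.41. By type, 5 of 12 gamma A genes, 5 of 6 gamma B genes and 2 of 3 gamma C genes were lower. Whether these shares differ between types was not tested. Without KO 1, 19 of 21 gamma genes were called lower, whereas 4, 3 and 3 were with WT 1, WT 2 or WT 3 left out, and 4 and 3 with KO 2 or KO 3 left out. The share of all genes called lower was 20.9% in the fit without KO 1 and 3.9% to 6.31% in the other 5.

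Among the gamma C genes Pcdhgc3 and Pcdhgc4 gave unlike readings. Pcdhgc4 (37815079 to 37841873), known to be the isoform that cortical interneurons need to survive their period of programmed death, had 25.4, 30.8 and 28.5 CPM in WT and 21.2, 13.7 and 13.9 CPM in KO. All KO libraries lay below all WT libraries, and the gene fell 1.73-fold (log2 fold change -0.79, SE 0.16, edgeR adjusted p = 0.0138). The call was lost without WT 2, WT 3 or KO 3 (edgeR adjusted p 0.0558, 0.0518 and 0.0529). Pcdhgc3 (37806364 to 37841873), which promotes dendrite branching through Axin1, had the highest level per length of all members, with 64.7, 71.6 and 68.9 CPM in WT and 70.5, 55.8 and 57.7 CPM in KO. KO 1 was inside the WT range (log2 fold change -0.16, 95% interval -0.35 to 0.04, edgeR adjusted p = 0.228), and without KO 1 it was called lower (log2 fold change -0.26, edgeR adjusted p = 0.00156). The ratio of Pcdhgc4 to Pcdhgc3 was 0.393, 0.430 and 0.414 in WT and 0.301, 0.245 and 0.241 in KO, so that KO 1 was on the KO side in this ratio. It was chosen after the values were seen and was not tested. Pcdhgc5 (37819513 to 37841873), known mainly from the postnatal brain, had 8.32, 8.45 and 8.94 CPM in WT and 7.09, 6.15 and 5.35 CPM in KO. Its groups did not overlap and it fell 1.39-fold (log2 fold change -0.47, SE 0.12, edgeR adjusted p = 0.0251), a call lost with any library but KO 1 left out (edgeR adjusted p 0.0593 to 0.0994).

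Of the alternate gamma genes, 3 kept their call with any 1 library left out. Pcdhga11 (37755731 to 37841873) had 18.7, 19.3 and 20 CPM in WT and 13.3, 14.2 and 12.1 CPM in KO. Here KO 1 lay between KO 3 and KO 2, and the gene fell 1.47-fold (log2 fold change -0.55, SE 0.08, edgeR adjusted p = 0.00316). Pcdhgb6 (37742094 to 37841873), with the highest CPM of the alternate gamma genes, had 36.7, 33.4 and 35.0 CPM in WT and 27.2, 21.9 and 21 CPM in KO. It fell 1.5-fold with groups well apart (log2 fold change -0.58, SE 0.10, edgeR adjusted p = 0.00507). Pcdhga12 (37765580 to 37841873) had 18.9, 19.3 and 20.9 CPM in WT and 15.3, 14.9 and 14.1 CPM in KO. The 3 KO values were close together and below WT, a 1.33-fold drop (log2 fold change -0.42, SE 0.08, edgeR adjusted p = 0.00786).

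The other 7 called gamma genes had all KO libraries below all WT libraries too. Pcdhgb1 had 5.98, 6.30 and 6.23 CPM in WT and 4.74, 3.27 and 2.57 CPM in KO, and fell 1.75-fold (edgeR adjusted p = 0.0208). Pcdhga1, the lowest gamma gene per length, had 2.95, 3.55 and 3.65 CPM in WT and 2.64, 2.03 and 1.52 CPM in KO, and fell 1.64-fold (edgeR adjusted p = 0.0351). In both genes KO 1 was the highest and KO 3 the lowest of the KO libraries. Pcdhga6 had 9.93, 9.47 and 8.40 CPM in WT and 7.49, 6.61 and 5.02 CPM in KO, a 1.46-fold drop (edgeR adjusted p = 0.0311). Pcdhgb7 had 17, 18 and 18.2 CPM in WT and 15.8, 11.6 and 11.4 CPM in KO, a 1.37-fold drop (edgeR adjusted p = 0.031). KO 1 came near the WT range in Pcdhgb7 and less so in Pcdhga6. Pcdhgb5 had 9.91, 11.2 and 12.3 CPM in WT and 9.21, 8.76 and 7.09 CPM in KO, and fell 1.33-fold (edgeR adjusted p = 0.044). Pcdhga9 had 7.52, 8.60 and 7.82 CPM in WT and 6.66, 5.98 and 5.35 CPM in KO, and fell 1.33-fold (edgeR adjusted p = 0.0346). Pcdhgb2 had 9.93, 10.1 and 9.67 CPM in WT and 8.51, 7.58 and 6.47 CPM in KO, and fell 1.32-fold (edgeR adjusted p = 0.0364). In these 3 genes the order of the KO libraries was KO 1, KO 2, KO 3 from high to low. Leaving out any library but KO 1 ended the call in each of the 7 (edgeR adjusted p from 0.0515 in Pcdhgb5 to 0.161 in the same gene), while leaving out KO 1 kept it. The Pcdhgb5 call was also lost with the length trend removed (edgeR adjusted p 0.0581) and with blocking on replicate number (0.102).

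The 8 other gamma genes (7 of type A and 1 of type B) were not called, with log2 fold changes from -0.38 to 0.03 and overlapping groups in all 8. In all 8 of them KO 1 was higher than both other KO libraries and than at least 1 WT library. Pcdhga10, which lies wholly under the antisense transcript Gm26672, had under 1.1 CPM in every library, so its reads and those of Gm26672 cannot be told apart without strand. The polymorphic pseudogene Pcdhgb8, which the gene type keeps out of the 69 members, had 5.11 ± 0.798 CPM in WT and 3.66 ± 0.387 CPM in KO and was called lower (log2 fold change -0.48, edgeR adjusted p = 0.0448).

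**Figure D4:**
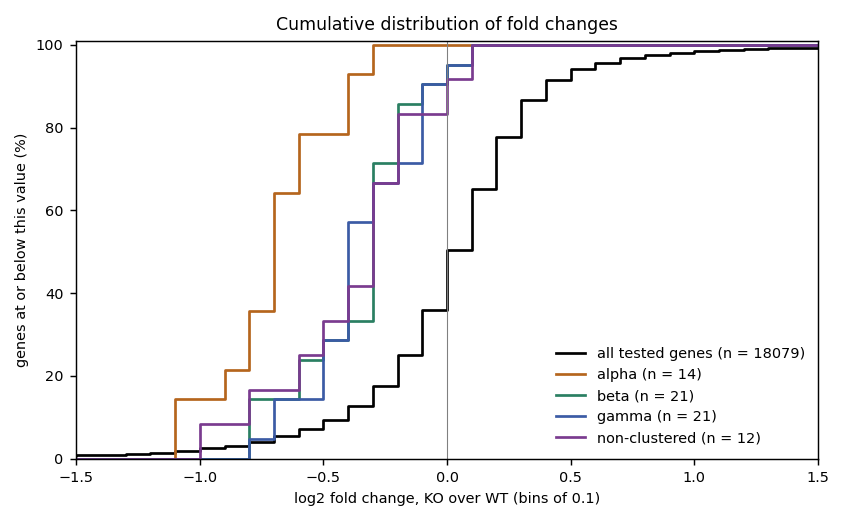
Cumulative share of genes (vertical axis, percent) at or below each log2 fold change, KO over WT (horizontal axis, steps of 0.1), for all 18079 tested genes in black and the 4 protocadherin groups in colour. The curves of all 4 groups lie to the left of that of all genes, alpha farthest, with medians of -0.77 (alpha), -0.34 (beta), -0.41 (gamma) and -0.37 (non-clustered) against -0.00.

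To compare levels between genes, CPM were divided by the kilobases of exon that no other annotated gene covers on either strand. On this scale the mean over the 6 libraries was highest for Pcdhgc3 at 35.6 CPM per kb, followed by Pcdh8 at 18, Pcdhga11 at 13, Pcdhgb6 at 11.4 and Pcdh1 at 10.7. Pcdhgc3 had 37.6 ± 1.91 CPM per kb in WT and Pcdh8 had 20.1 ± 1.65, so their order held beyond the spread. Pcdhgb6 (13.7 ± 0.658 CPM per kb in WT) and Pcdh1 (12.9 ± 0.495) did not differ beyond theirs. Gamma genes spanned 0.959 to 35.6 CPM per kb (median 3.07), non-clustered genes 0.335 to 18 (median 3.34), alpha genes 0.105 to 4.20 (median 1.16) and tested beta genes 0.200 to 2.39 (median 0.703). The order among alpha and gamma genes depends on the length used. Divided by full exonic length, Pcdh8 came first and Pcdhgc3 second, and Pcdhga11 went from place 3 to place 10. Over 68 members with a level on both scales, Spearman's rho between the scales was 0.923, a description over genes from the same libraries.

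**Figure D5:**
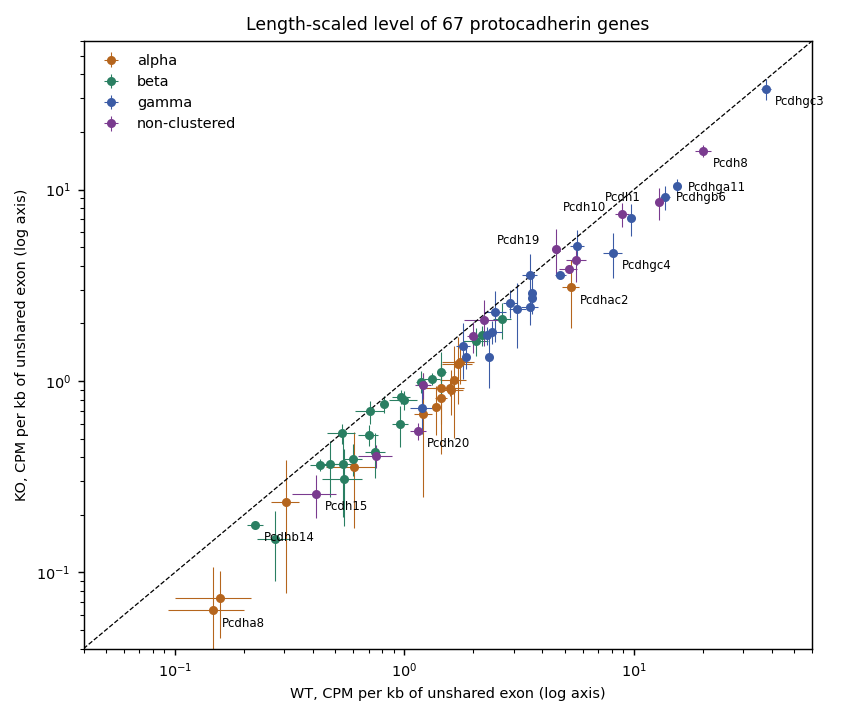
Mean level per kilobase of unshared exon in KO (vertical axis) against WT (horizontal axis), both log scaled, for 67 protocadherins coloured by group, with bars of 1 SD over 3 libraries on each axis, drawn no longer than 90% of the mean. The dashed line marks equal levels; most points lie below it at every level, from Pcdha8 at 0.147 in WT and 0.0633 in KO to Pcdhgc3 at 37.6 in WT and 33.7 in KO, and Pcdh19 lies above it.

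Among 22 genes known to act on promoter choice and chromatin in the clusters (CTCF, cohesin and its loaders, DNA methyltransferases and silencing factors), 4 were lower and 0 higher, with a median log2 fold change of -0.06. Mau2, which with Nipbl loads cohesin on DNA, had 185 ± 3.96 CPM in WT and 148 ± 6.71 CPM in KO (log2 fold change -0.33 with an SE of 0.06, edgeR adjusted p = 0.00506). Pds5b, a regulator of cohesin release, had 153 ± 5.57 and 127 ± 12.2 CPM (log2 fold change -0.27, edgeR adjusted p = 0.0303). Stag2, a cohesin subunit, had 134 ± 9.36 and 116 ± 2.07 CPM (-0.21, edgeR adjusted p = 0.0427). In each of these 3 genes all KO libraries were below all WT libraries, and the share of the list called lower, 18.2%, stood against 10.5% of all genes. Leaving out any library but KO 1 left 1 of the 22 called lower, where 3.9% to 6.31% of all genes were. Without KO 1 there were 9, where 20.9% of all genes were called lower.

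Among 25 genes for partners and processing of protocadherins (the WAVE complex, kinases, presenilins, Adam10, N-cadherin and others), 3 were higher (12%, against 9.72% of all genes) and 1 lower (4%, against 10.5%), with a median log2 fold change of -0.02. These shares are near or below those of all genes, so the counts say nothing particular about the list. Cdh23, the tip link partner of Pcdh15, had 2.54 ± 0.329 CPM in WT and 3.94 ± 0.379 CPM in KO and rose (log2 fold change 0.64, SE 0.15, edgeR adjusted p = 0.0176). Ppp1ca, the catalytic phosphatase bound by delta1 tails, had 229 ± 7.55 and 278 ± 11.1 CPM (0.28, edgeR adjusted p = 0.0114). Brk1 and Abi2 are subunits of the WAVE complex and moved in opposite directions. Brk1 rose from 87.5 ± 3.34 to 104 ± 5.22 CPM (log2 fold change 0.25, edgeR adjusted p = 0.0195), and Abi2 fell from 165 ± 2.31 to 143 ± 8.27 CPM (log2 fold change -0.21, edgeR adjusted p = 0.0335). With 1 library left out the number called higher was 0 to 4 and the number called lower 0 to 5, the highest of both without KO 1. Over all genes, 20.6% were called higher and 20.9% lower without KO 1. In the other leave-one-out fits 2.49% to 4.44% of all genes were higher and 3.9% to 6.31% lower.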

How the data were processed

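The count table deposited by the authors, with raw reads per Ensembl gene in 6 libraries of MGE RNA, was the input of every test. Per the submitters' processing notes, the tools were STAR 2.5.2b, Trimmomatic 0.36, Subread 1.5.2, featureCounts and DESeq2 (in no stated order), and the build was GRCm38. Annotation release and strand setting: not given in the sources used here. A deposited normalized table was not used, because 2 of its value columns share a name.

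The labels give the groups, and describe the libraries as separate pools. Gene types, positions and exons were taken from GENCODE M21 (49056 of 49315 IDs found), promoters from RefSeq (GRCm38.p6). A filter on low counts (filterByExpr, minimum count 10 and minimum total 15) kept 18079 genes. Library totals were 33188277 to 55552298 counts. WT and KO were compared, unpaired, in edgeR 4.0.16 by its quasi-likelihood test with robust weighting (R 4.3.3, TMM factors, Benjamini-Hochberg at 0.05), and the coefficient of biological variation came to 9.52%. In simulated data for this comparison (17853 genes) changes of 1.5-fold were recovered in 83% of cases and changes of 2-fold in 99%, with 4.71% false calls.

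The members, gene lists and tests were chosen with earlier results of these data known. Named are every non-clustered member and, of the clusters, called members, C-type members, and the 2 highest and the lowest per length in each cluster. Lists were named by up to 4 genes each, those of smallest unadjusted p (1 gene of the regulator list is not reported here), and genes next to the clusters, Pcdhgb8, Pcdhga10 and Xist were named after their values were seen. The motifs of the TATA, CCAAT and GC boxes were added after a first scan. Alternatives were other scalings, no filter or a stricter one (1 CPM in 3 libraries), DESeq2 1.42.0, limma voom (limma 3.58.1), a spread estimate without robust weighting, blocking on replicate number, leaving out each library and thresholds of 0.01 and 0.1. Added once the data had been seen were a fit on protein-coding genes alone and one with each library's length trend taken out.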

Additional observations from a re-analysis of the deposited data

How the results depend on the processing

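Of the 25 called protocadherins, Pcdh1, Pcdh11x, Pcdh18, Pcdh20, Pcdhga11, Pcdhga12 and Pcdhgb6 kept the call in all 17 alternative fits, and 22 kept it in all fits other than the leave-one-out fits and the block. The 3 that did not were Pcdh15, Pcdhac2 and Pcdhgb5. None reversed. The number called lower was 7 at a threshold of 0.01, 35 at 0.1 and 7 to 54 with 1 library left out. It was 23 to 28 with other scalings, filters or tools, with protein-coding genes alone and with the length trend removed. In those fits 6.5% to 12.4% of all genes were called lower. Members called higher numbered 0 in all of the fits named here. At an unadjusted edgeR p under 0.05, 41 of the 68 tested members differed, as did 6627 of all 18079 tested genes. Shares of all genes at the thresholds of 0.01 and 0.1 are not given here. DESeq2 called 28 lower and 0 higher, where 11.9% and 11.4% of all genes were.

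With the replicate number as a block, 12 members were called lower (6.74% of all genes in that fit) and 13 calls were lost. The 13 were Pcdh8, Pcdh15, Pcdha2, Pcdhac2, Pcdhb16, Pcdhb19, Pcdhb21, Pcdhga1, Pcdhga9, Pcdhgb2, Pcdhgb5, Pcdhgb7 and Pcdhgc5. Deviations of same-numbered WT and KO libraries had correlations of -0.08, -0.12 and 0.03. With so few libraries a group and a KO library that stood apart, these values cannot show whether same-numbered libraries were paired.

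The regulator list had 1 to 9 genes lower with 1 library left out, and 1 lower and 2 higher with the length trend removed. The partner list had 0 to 4 higher and 0 to 5 lower with 1 library left out. It had 2 lower without a filter, 0 with the block and 0 with the length trend removed. Over all genes the share called lower was 3.9% to 20.9% with 1 library left out and 6.5% without a filter. That share was 6.74% with the block and 9.39% with the length trend removed. The share called higher was 2.49% to 20.6% with 1 library left out and 10.2% with the length trend removed.

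The 27 reversed values belong to members that were not called with all libraries. With 1 library left out, log2 fold changes ran from -0.148 (without KO 1, called lower) to 0.211 in Pcdh19, -0.328 to 0.032 in Pcdh7, -0.162 to 0.081 in Pcdhb8, -0.111 to 0.093 in Pcdhb12, -0.378 to 0.024 in Pcdhga2, -0.230 to 0.165 in Pcdhga7 and -0.222 to 0.208 in Pcdhga10. With the length trend removed they were 0.036 in Pcdh7, -0.046 in Pcdhb12 and 0.017 in Pcdhga10. With the block they were -0.004 in Pcdhb12 and -0.004 in Pcdhga7, and by library size alone -0.008 in Pcdhb12. With voom they were -0.006 in Pcdhga7 and 0.003 in Pcdhga10. Pcdhga10 was at 0.000 with RLE factors, 0.005 with upper quartile factors, 0.017 without a filter and 0.001 with protein-coding genes alone. The cause was not tested.

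With 3 libraries a group and KO 1 apart, counts of members called lower ran from 7 to 54 with 1 library left out. They were 12 with the block, and 7 and 35 at thresholds of 0.01 and 0.1. With other scalings, filters or tools, with protein-coding genes alone and with the length trend removed they were 23 to 28. Over all genes the share called lower ran from 3.9% to 20.9% with 1 library left out. Alpha genes, with counts as low as 2, have wide intervals.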
